A study of Mus musculus with 58 samples.

Results

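Dbp, Tef, Hlf and Nfil3 were followed in lung, liver and forestomach of mice dosed with BaA (benz(a)anthracene), one of the polycyclic aromatic hydrocarbons. They are 4 of the 20018 genes that the array probes could be tied to, and 5 of its 55681 gene probes, since Dbp has 2 probes and each of the others has 1. The members were chosen by name with their changes over dose, their pattern across the 3 tissues and their agreement between tissues of one mouse already in view. For that reason their values are given as a description, with standard deviations and standard errors and no p-value. The share of all probes whose dose and vehicle groups did not overlap was not counted. Nothing is therefore read from the groups without overlap named below. All 5 probes were well above background on all 58 arrays and none was saturated on any.

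Male Muta™Mouse animals, about 10 weeks old and carrying a bacterial lacZ reporter transgene in every group, received BaA in olive oil by gavage for 28 days. Vehicle mice (D0) had olive oil alone, and the groups D1, D2 and D3 had BaA at 20, 40 and 80 mg per kg body weight each day; tissue was taken 72 h after the final gavage. Each array set Cy5-labelled RNA of 1 tissue of 1 mouse against one Cy3-labelled universal mouse reference RNA pooled from cell lines, so every value below is a log2 ratio of tissue to reference after loess normalisation. Lung had 5 mice in each group. Liver had 4 mice at D3 and 5 in each other group, while forestomach had 4 at D0 and 5 in each other group. The mice were numbered 1 to 20 and a number names the same animal in each tissue; the liver of mouse 20 and the forestomach of mouse 5 were not analysed here. RNA came from random slices of bulk tissue, in which fewer cells of a type and less RNA per cell cannot be told apart.

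The circadian clock is a feedback loop in which BMAL1 (the product of Arntl) and CLOCK switch on genes through E-box elements, among them their own inhibitors of the Per and Cry families. Dbp, Tef and Hlf encode the PAR bZIP factors, activators that bind D-box elements and carry the rhythm to genes of metabolism and detoxification. Nfil3, also called E4BP4, encodes a bZIP repressor that binds the same D-box elements, and its transcript cycles in antiphase to Dbp; outside the clock it is needed for natural killer cell development. Transcripts of this kind change level over the day. The hour at which each mouse was killed is not given in the sources used here, and its part in the values below was not tested.

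The promoters of the members are shown because the clock reaches them through short DNA elements. Each is the 250 bases before a RefSeq transcription start in GRCm38.p6, on the strand of the gene, with matches in capitals. Searched on both strands were the E-box CACGTG, the D-box TTATGTAA or TTACGTAA, the ROR element TAGGTCA, which REV-ERB and ROR receptors bind, and the cAMP response element TGACGTCA. Tef has 2 starts, and its first window (chr15:81802423-81802672, plus strand) held an E-box that begins 127 bases before the start.
Tef: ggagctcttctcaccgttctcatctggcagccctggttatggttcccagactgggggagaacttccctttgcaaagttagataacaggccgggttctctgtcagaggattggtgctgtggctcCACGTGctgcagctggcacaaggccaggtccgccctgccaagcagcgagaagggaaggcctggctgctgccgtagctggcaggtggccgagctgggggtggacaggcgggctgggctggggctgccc
The second Tef window (chr15:81811164-81811413, plus strand) also held an E-box, which begins 138 bases before that start. An E-box was present in 6.02% of the 32851 promoter windows of all genes. The window of Hlf (chr11:90390918-90391167, minus strand) held a cAMP response element 9 bases before the start, a word found in 1.55% of windows.
Hlf: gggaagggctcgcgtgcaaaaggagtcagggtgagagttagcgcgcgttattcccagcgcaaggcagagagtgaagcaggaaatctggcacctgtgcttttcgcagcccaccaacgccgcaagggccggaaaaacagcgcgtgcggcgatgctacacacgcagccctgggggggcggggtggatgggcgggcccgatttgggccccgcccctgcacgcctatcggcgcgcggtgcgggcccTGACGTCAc
The window of Nfil3 (chr13:52981040-52981289, minus strand) held the ROR element in reverse, TGACCTA, 12 bases before the start, and 2.23% of windows held this element on either strand.
Nfil3: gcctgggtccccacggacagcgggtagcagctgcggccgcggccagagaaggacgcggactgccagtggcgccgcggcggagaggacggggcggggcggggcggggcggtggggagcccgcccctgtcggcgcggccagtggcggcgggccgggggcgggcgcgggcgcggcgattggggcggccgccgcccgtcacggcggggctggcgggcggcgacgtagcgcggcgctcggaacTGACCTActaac
The window of Dbp (chr7:45704997-45705246, plus strand) held none of the words searched, which says only that these letters are not in these bases. Per3, a clock gene whose values are given further on, is shown for its pair of D-boxes, 205 and 158 bases before the start (chr4:151044666-151044915, minus strand). A D-box was present in 0.931% of windows.
Per3: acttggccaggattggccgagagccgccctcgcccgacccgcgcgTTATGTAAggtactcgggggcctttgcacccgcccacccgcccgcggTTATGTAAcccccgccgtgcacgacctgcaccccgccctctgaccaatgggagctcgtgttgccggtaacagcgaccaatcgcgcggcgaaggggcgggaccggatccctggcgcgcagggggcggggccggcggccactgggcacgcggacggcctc
A match is a description of the sequence and not evidence of a bound site.

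Dbp had a higher mean in lung at each step of the dose. In vehicle mice 1 to 5 the lung log2 ratios were 0.48, 1.13, -0.68, 0.81 and -0.43. At D1, mice 6 to 10 had 0.68, -0.02, 1.74, 1.14 and 1.21, and at D2, mice 11 to 15 had 1.11, 1.96, 1.61, 1.38 and 2.30. At D3, mice 16 to 20 had 1.72, 2.11, 1.88, 1.85 and 2.68, so that all 5 lay above every vehicle mouse, while D1 and D2 overlapped the vehicle range. The group means were 0.26 ± 0.79 (SD, n = 5), 0.95 ± 0.66, 1.67 ± 0.47 and 2.05 ± 0.38 from D0 to D3. The change against vehicle was 0.69 (SE 0.34) at D1, 1.41 (SE 0.34) at D2 and 1.79 (SE 0.34) at D3, the last a 3.45-fold difference. The second Dbp probe gave 1.80 (SE 0.35) at D3.

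In liver Dbp started from a higher ratio and the vehicle mice were far apart. Vehicle mice 1 to 5 had 0.86, 2.29, -1.08, 2.15 and 1.53. The 4 D3 livers, mice 16 to 19, had 2.16, 2.48, 2.48 and 2.46, and 3 of them lay above every vehicle liver. The means were 1.15 ± 1.37 (SD, n = 5) at D0 and 2.39 ± 0.16 (n = 4) at D3, with 1.52 ± 0.64 at D1 and 1.99 ± 0.78 at D2 (n = 5 each). The D3 change was 1.24 (SE 0.53), and it was 0.69 without vehicle mouse 3. In forestomach vehicle mice 1 to 4 had -0.14, -0.31, -1.75 and 0.59, and D3 mice 16 to 20 had 1.19, 1.58, 1.39, 1.48 and 1.49, with no overlap. The forestomach change was 0.33 (SE 0.49) at D1, 0.95 (SE 0.49) at D2 and 1.83 (SE 0.49) at D3. Without vehicle mouse 3 these were -0.12, 0.50 and 1.38, so the D1 difference turned sign.

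Tef also had a higher mean at D3 than in vehicle in each tissue, with smaller changes than Dbp. Its liver mean at D1 lay below vehicle. In lung its vehicle ratios for mice 1 to 5 were 1.67, 1.99, 0.93, 1.97 and 1.41, and its D3 ratios for mice 16 to 20 were 2.22, 2.25, 2.32, 2.69 and 2.81. The lung groups D0 and D3 did not overlap, and the changes were 0.09 (SE 0.23) at D1, 0.58 (SE 0.23) at D2 and 0.86 (SE 0.23) at D3. In liver the vehicle mice ran from 0.01 to 1.57 with a median of 0.78, and the D3 mice from 1.05 to 1.83, giving a D3 change of 0.65 (SE 0.29) with overlapping groups. The liver change was -0.10 (SE 0.28) at D1 and 0.25 (SE 0.28) at D2. In forestomach the vehicle mice had 0.38, 0.51, -0.41 and 0.54 and the D3 mice 0.97, 1.21, 1.27, 1.27 and 1.15, which did not overlap, and the D3 change was 0.92 (SE 0.27). Without vehicle mouse 3 the D1 change of Tef was -0.07 in lung, -0.32 in liver and -0.15 in forestomach.

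Hlf, which also has a role in blood stem cells, had the least separated groups of the 3 activators. Its lung ratios in vehicle mice 1 to 5 were 0.57, 1.27, -0.30, 1.35 and 1.00, and in D3 mice 16 to 20 they were 1.46, 1.66, 1.78, 1.74 and 2.26. All 5 D3 lungs lay above the vehicle lungs, and the change was 1.00 (SE 0.33) at D3 and 0.61 (SE 0.33) at D2. In liver the D3 change was 0.36 (SE 0.24), and 0.15 without vehicle mouse 3, with vehicle ratios of 1.64 to 3.06 and D3 ratios of 2.60 to 3.23. In forestomach it was 0.48 (SE 0.32), with 1.17 to 1.64 in the vehicle mice and 1.65 to 2.26 at D3, while the D2 change was 0.03 (SE 0.32).

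Nfil3, the repressor, ran the other way. In lung, vehicle mice 1 to 5 had -1.46, -1.95, -1.25, -1.71 and -1.48, D2 mice 11 to 15 had -2.28, -2.52, -2.52, -2.40 and -2.55, and D3 mice 16 to 20 had -2.42, -2.66, -2.46, -2.60 and -2.54. All 10 mice at D2 and D3 lay below every vehicle mouse, whereas the D1 mice, from -2.20 to -1.16, spanned the vehicle range. The lung change was -0.08 (SE 0.15) at D1, -0.88 (SE 0.15) at D2 and -0.97 (SE 0.15) at D3. With median centring in place of loess it was -0.28 at D2 and -0.64 at D3. In forestomach vehicle mice 1 to 4 had -1.01, -1.20, -0.27 and -1.30 and D3 mice 16 to 20 had -1.79, -1.98, -2.00, -2.06 and -2.15. The forestomach changes were -0.39 (SE 0.19), -0.72 (SE 0.19) and -1.05 (SE 0.19) from D1 to D3, and neither D2 nor D3 overlapped the vehicle mice. In liver vehicle mice 1 to 5 had 0.15, -0.56, 1.12, 0.14 and 0.27, the 4 D3 mice lay between -0.38 and -0.27, inside that range, and the change was -0.56 (SE 0.23), or -0.33 without vehicle mouse 3.

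**Figure D1:**
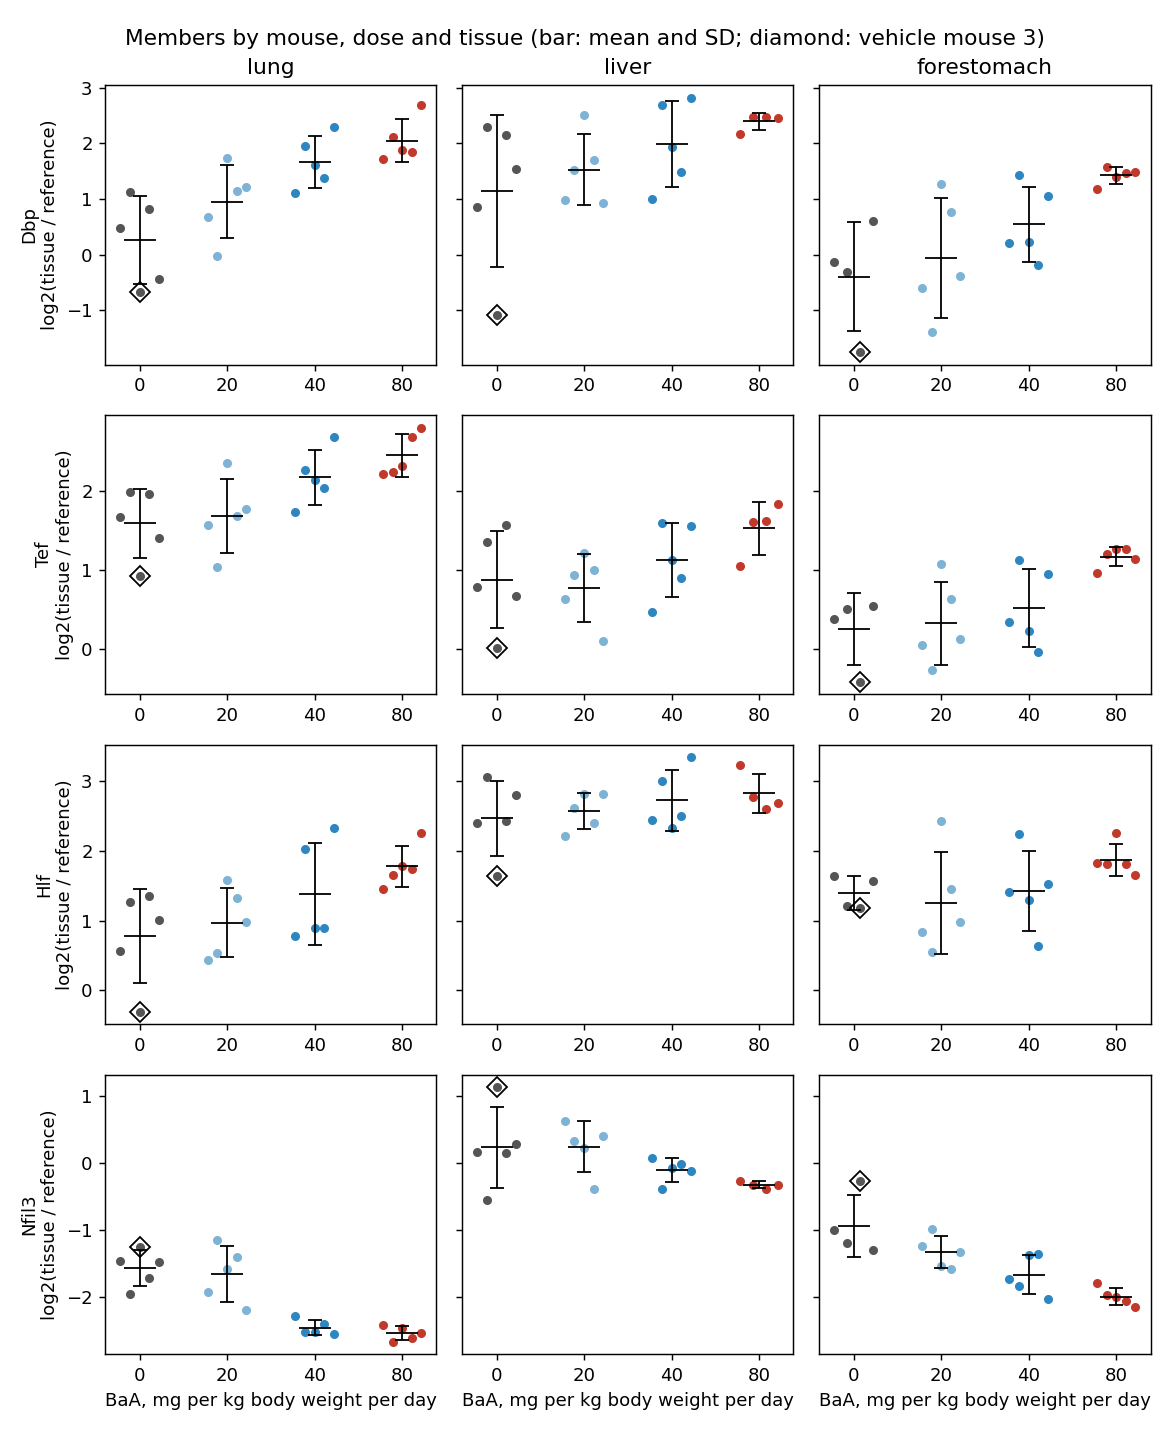
Log2 ratio of tissue to reference for Dbp, Tef, Hlf and Nfil3 (rows) in lung, liver and forestomach (columns) against the daily BaA dose in mg/kg body weight; each point is 1 mouse, bars give the mean and SD, and the diamond marks vehicle mouse 3. The mean of each of the 3 activators is higher and that of Nfil3 lower at 80 than at 0 mg/kg in each tissue. For liver Dbp the SD is 0.16 at 80 and 1.37 at 0 mg/kg, the latter 0.65 without mouse 3.

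A probe was called when its limma adjusted p was at most 0.05 and its change at least 1.5-fold. At D3 in lung 3 of the 4 members met this rule (Dbp, Tef and Nfil3), beside 1.88% of all probes tested there, and at D2 in lung 2 did (Dbp and Nfil3), beside 0.556%. No member met it in liver, where the share called was 0.588% for D2 and 0.434% for D3, or in forestomach, where 0.0124% and 0.0248% were called. The difference between the lung and liver changes met the rule for no member, beside 2.2% of probes at D2 and 2.07% at D3. These contrasts were among the values used to choose the members, and nothing is read from the counts. Without vehicle mouse 3, Dbp at D2 and Tef at D3 in lung no longer met the rule, and with median centring in place of loess no member met it there. For Dbp the lung change exceeded the liver change by 0.54 (SE 0.68) at D3, for Tef by 0.21 (SE 0.39) and for Hlf by 0.64 (SE 0.45), and for Nfil3 the difference was -0.41 (SE 0.28). The model behind these standard errors did not pair the 2 tissues of a mouse.

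**Figure D2:**
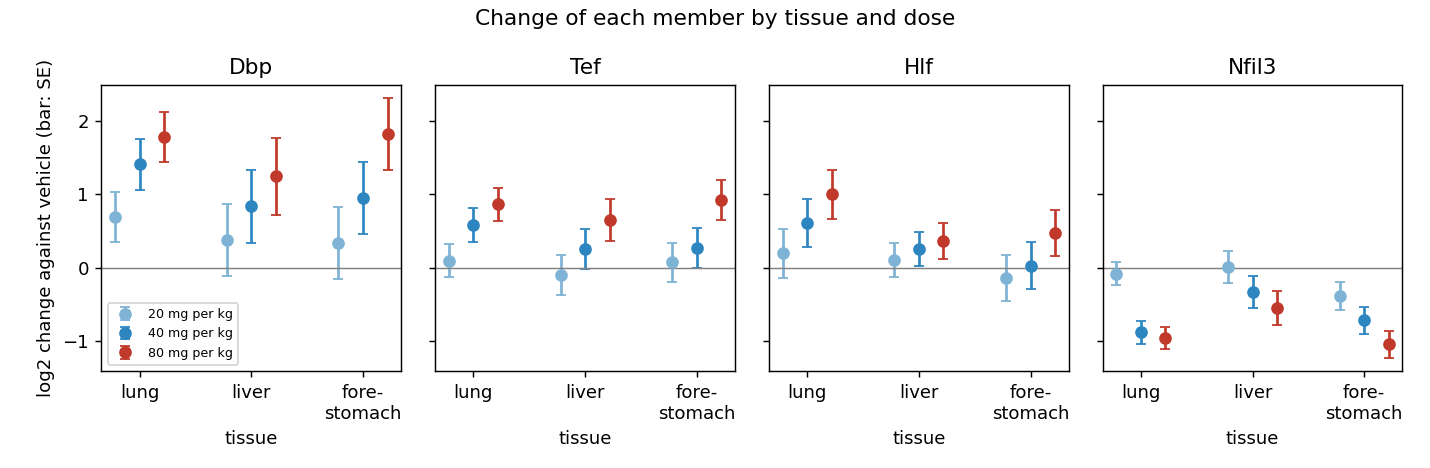
Log2 change of each member against vehicle (vertical axis) by tissue, with the 20, 40 and 80 mg/kg groups in separate colours and bars for the standard error. Dbp lies between 1.24 and 1.83 and Nfil3 between -1.05 and -0.56 at 80 mg/kg in the 3 tissues.

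Tissues differed in the level of each member before any BaA. In vehicle mice Nfil3 stood at 0.23 ± 0.60 in liver (SD, n = 5), -0.95 ± 0.47 in forestomach (n = 4) and -1.57 ± 0.27 in lung (n = 5), and the liver and lung ranges did not overlap, while forestomach overlapped both. Hlf stood at 2.47 ± 0.54 in liver, 1.40 ± 0.24 in forestomach and 0.78 ± 0.68 in lung, with the liver and forestomach ranges meeting at 1.64 and those of forestomach and lung overlapping. Tef had a different order, with 1.59 ± 0.44 in lung, 0.88 ± 0.61 in liver and 0.25 ± 0.45 in forestomach, and neighbours in that order overlapped. Dbp stood at 1.15 ± 1.37 in liver, 0.26 ± 0.79 in lung and -0.40 ± 0.98 in forestomach, and its spread within a tissue was as wide as the gaps between tissues.

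Vehicle mouse 3 stood apart from the other vehicle mice in the same sense in each tissue. It had the lowest Dbp, Tef and Hlf ratio and the highest Nfil3 ratio of the vehicle mice in lung, liver and forestomach. Without it the vehicle mean of Dbp was 0.50 ± 0.68 in lung (SD, n = 4), 1.71 ± 0.65 in liver (n = 4) and 0.05 ± 0.48 in forestomach (n = 3). The vehicle SD of Tef in forestomach fell from 0.45 to 0.09 without it, below the 0.12 at D3. Its absence also moved the smaller changes against vehicle: in lung Dbp at D1 became 0.45, Tef at D1 -0.07, Nfil3 at D1 -0.003 and Hlf at D2 0.34, and in forestomach Nfil3 at D1 became -0.16, Hlf at D2 -0.05 and Tef at D2 0.05. In liver Dbp went from 0.38 to -0.18 at D1, a turn of sign, and from 0.84 to 0.28 at D2. Also in liver, Hlf at D1 went from 0.11 to -0.10, Nfil3 at D1 from 0.01 to 0.23 and Tef at D2 from 0.25 to 0.03. On the arrays of mouse 3, 53.6% of spots in lung, 36.1% in liver and 55.4% in forestomach exceeded background clearly in Cy5, where vehicle arrays ranged over 44.4 to 53.9%, 36.1 to 45.7% and 38.4 to 58.2%. Its liver array was thus the vehicle liver array with the lowest share, and the part of this in its liver values was not tested.

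Each slide carried arrays of all dose groups, so the change could be read within slides, from 1 or 2 mice of a group. For Dbp, D3 minus D0 within the 3 slides of a tissue ran from 1.11 to 2.53 for lung, from 0.25 to 1.94 for liver and from 1.53 to 1.96 for forestomach. For Tef it ran from 0.40 to 1.76, 0.03 to 0.94 and 0.70 to 1.21, and for Hlf from 0.64 to 2.04, 0.31 to 0.61 and 0.18 to 0.89. For Nfil3 it was below 0 on every slide, with ranges of -1.35 to -0.84 for lung, -0.99 to -0.12 for liver and -1.21 to -0.88 for forestomach. For all 4 genes the end of the range farthest from 0 came, in each tissue, from the slide that carried vehicle mouse 3. That slide in lung set 1 D3 mouse against mouse 3 alone. The array position on the slide went with the dose group throughout, so position and dose cannot be told apart. The reference channel of the members differed little between D3 and D0: over the 4 genes and 3 tissues the Cy3 difference, each array's median subtracted, lay between -0.08 and 0.09 on the log2 scale, whereas Cy5 differed by 1.20 to 1.89 for Dbp, 0.52 to 1.06 for Tef, 0.20 to 1.14 for Hlf and -1.17 to -0.63 for Nfil3.

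Mice that were high in one tissue for Dbp tended to be high in the others. After each dose group's mean was subtracted, Dbp in lung and liver correlated with r = 0.72 (rho 0.68) over 19 mice, in lung and forestomach with r = 0.81 (rho 0.81) over 19 mice, and in liver and forestomach with r = 0.75 (rho 0.81) over 18 mice. The median r over all probes tested in both tissues was 0.10, 0.07 and 0.03 for these pairs, and its 95th percentile 0.54, 0.52 and 0.51. Tef had r of 0.68, 0.79 and 0.72 in the same order. Hlf had 0.76, 0.56 and 0.27, and Nfil3 0.23, 0.41 and 0.70. This relation was part of how the members were chosen, the points share a mouse, and it is given without a test.

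Leaving out the pair of mice farthest from the lung or liver median changed the Dbp values to 0.72, 0.66 and 0.75, and the Tef values to 0.56, 0.66 and 0.65. Without vehicle mouse 3 the Nfil3 values were -0.02 in lung and liver, 0.22 in lung and forestomach and 0.41 in liver and forestomach, all below the values with that animal. For Dbp they were 0.63, 0.74 and 0.65. Among other clock genes, Per1 had 0.89, 0.91 and 0.88 and Arntl 0.94, 0.76 and 0.84, while Nr1d1 had 0.18, 0.18 and -0.06.

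**Figure D3:**
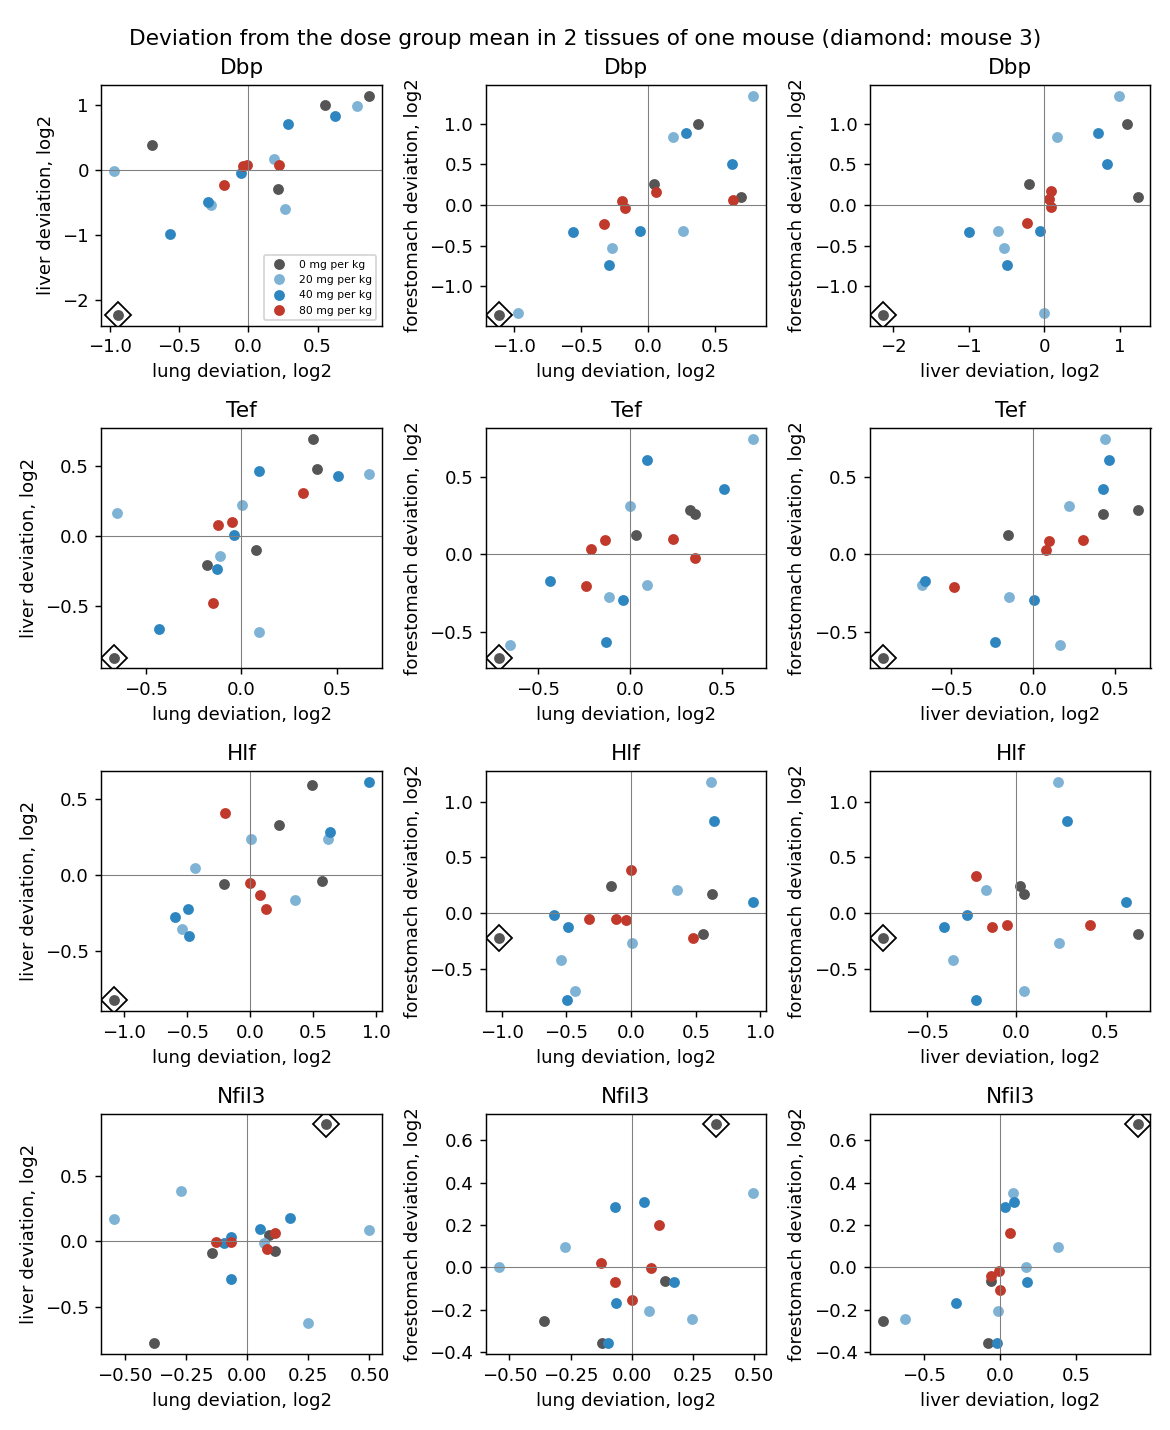
Deviation of each mouse from its dose group's mean log2 ratio in one tissue (horizontal axis) against another tissue (vertical axis), for Dbp, Tef, Hlf and Nfil3 (rows) and 3 tissue pairs (columns); colours give the dose and the diamond marks vehicle mouse 3. Dbp points lie along a rising line in each pair (r of 0.72 to 0.81), and Nfil3 points in lung and liver do not (r = 0.23).

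Within a tissue the correlations from mouse to mouse were above 0 among the 3 activators and below 0 between each of them and Nfil3, to differing degrees. With dose group means subtracted, Dbp and Tef correlated with r = 0.92 in lung (n = 20), 0.89 in liver (n = 19) and 0.95 in forestomach (n = 19). For Dbp and Hlf r was 0.80, 0.73 and 0.81 in these tissues, and for Tef and Hlf 0.82, 0.43 and 0.85, lowest in liver. Dbp and Nfil3 correlated with r = -0.58, -0.77 and -0.86, Tef and Nfil3 with -0.55, -0.67 and -0.86, and Hlf and Nfil3 with -0.34, -0.58 and -0.53. The points share an array, and the values are a description.

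The genes most like each member were ranked over 58 arrays and 11500 genes after each tissue's mean was subtracted. Most like Dbp were Tef (r = 0.93), Nr1d2 (0.84), Cry2 (0.80), Hlf (0.79) and Per3 (0.78), and most opposite were Arntl (-0.87), Nfil3 (-0.85) and Gm2016 (-0.76). Most like Tef were Dbp, Nr1d2 (0.87), Per3 (0.82), Ciart (0.79) and Per1 (0.78), and most opposite Arntl (-0.86), Nfil3 (-0.81) and Ran (-0.79). Most like Hlf were Dbp, Cry2 (0.77), Tef (0.76), Cipc (0.75) and Ciart (0.74), and most opposite Arntl (-0.74), Batf (-0.63) and Nfil3 (-0.60). Most like Nfil3 were Gm2016 (0.72), Hspa8 (0.70), Dnaja1 (0.69), Arntl (0.68) and Hspa1a (0.65), and most opposite Dbp, Tef and Per3 (-0.74). With dose group means subtracted as well, Hspa8, Dnaja1 and Hspa1a, which encode heat shock proteins, had r of 0.24, 0.31 and 0.28 with Nfil3.

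Other clock genes were read from lists of output genes, which share the phase of Dbp to a greater or lesser degree, and of genes of opposite phase. The lists were written with earlier results of these data known, so their counts and p-values are no independent test. In lung at D3, 4 of the 11 output genes were called and all 4 rose, beside 1.88% of all probes called and 1.32% called higher. All 11 had a change above 0. Per3, a period gene, rose by 0.93 on the log2 scale (SE 0.19, limma adjusted p = 0.0048), Per2, its core clock relative, by 0.89 (SE 0.25, adjusted p = 0.027), Ciart, a repressor of the loop, by 0.86 (SE 0.24, adjusted p = 0.025) and Nr1d2, which encodes REV-ERB beta, by 0.65 (SE 0.16, adjusted p = 0.015). Without vehicle mouse 3 the count was 1, and it was 2 without mouse 17 or mouse 19 of D3. The median change of the list was 0.43, beside 0.00 over all probes. Of the 3 opposite-phase genes tested in lung, Clock fell by 0.65 (SE 0.14, adjusted p = 0.0059), a call lost under median centring, and Arntl, at -1.02 (SE 0.32), missed the threshold with an adjusted p of 0.0503.

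In liver and forestomach no gene of either list was called at D3, beside 0.434% and 0.0248% of all probes. The medians of the output list were 0.25 and 0.47, with 8 and 11 of 11 genes above 0. At an unadjusted p under 0.05 there were 4 and 5 of its genes, and 1 and 2 of the opposite-phase genes. Of the 4 output genes in liver, Nr1d1 was lower, at -0.55 (SE 0.25), and the rest were higher. Over all probes tested, 15% in liver and 5.11% in forestomach had an unadjusted p under 0.05 at D3, and 23.9% in lung. Arntl stood at -1.00 (SE 0.55) in liver and -0.90 (SE 0.22) in forestomach. The change of Per3 in liver was -0.03 (SE 0.20), against a vehicle mean of 0.24 ± 0.44 (SD, n = 5), and the lung change exceeded it by 0.96 (SE 0.28, limma adjusted p = 0.045). Of 28 other settings, 12 kept that call.

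Reported targets of the PAR bZIP factors, which include cytochrome P450 genes, the P450 reductase Por and Alas1, the first enzyme of haem synthesis, were called in no tissue at D3. Of 12 listed genes, 11 were tested in liver, 7 in lung and 8 in forestomach, and the median changes were 0.00, -0.07 and 0.17. In liver Por stood at 0.68 (SE 0.44), Cyp7a1, the rate-limiting enzyme of bile acid synthesis, at 1.39 (SE 0.79), Pdxk, which makes pyridoxal phosphate, at 0.50 (SE 0.18) and Alas1 at -0.34 (SE 0.69). Less bright probes gave 0.28 (SE 0.12) and 0.26 (SE 0.10) for Pdxk, and 0.23 (SE 0.34), of opposite sign, for Alas1. At an unadjusted p under 0.05 there was 1 gene in liver, 1 in lung and 0 in forestomach, shares to be read against the 15%, 23.9% and 5.11% of all probes. The 4 genes of the C/EBP family, bZIP factors that can bind overlapping elements, were not called in any tissue either, and at an unadjusted p under 0.05 there were 0 in lung and 1 each in liver and forestomach, beside the same shares. Their D3 changes lay between -0.26 and 0.07 in lung and between -0.36 and 0.03 in forestomach, and in liver Cebpb stood at 0.57 (SE 0.20).

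**Figure D4:**
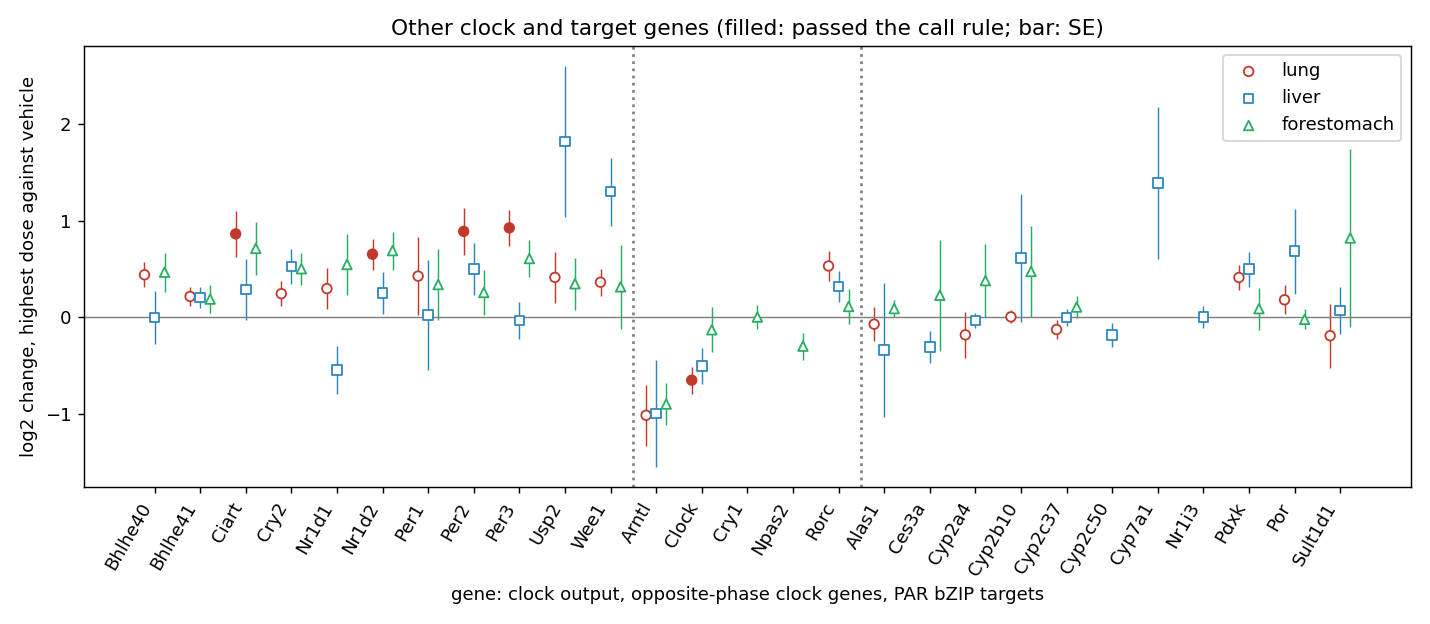
Log2 change at 80 mg/kg against vehicle, with bars for the standard error, for clock output genes, opposite-phase clock genes and PAR bZIP targets, divided by dotted lines; the marker shape gives the tissue and filled markers passed the call rule. The 5 filled markers are lung values, Ciart, Nr1d2, Per2 and Per3 above 0 and Clock below.

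Markers of other cell types were read beside these values. Lung epithelium markers (5 of 5 well above background) had a mean log2 ratio between 7.37 and 7.69 in vehicle lungs and between 7.40 and 7.58 at D3, hepatocyte markers between 7.10 and 7.57 and between 6.95 and 7.42 in liver, and squamous markers between 4.33 and 4.87 and between 4.24 and 4.82 in forestomach, so each tissue carried its own markers. In lung, B cell markers ran from 0.37 to 0.91 in vehicle mice and from 0.98 to 1.31 at D3, with 2 of 5 called (1.88% of all probes). At D2 they ran from 1.28 to 1.85, with 4 of 5 called (0.556% of all probes), and their part in the lung values was not tested. Fat cell markers in lung ran from 1.09 to 2.21 in vehicle mice and from 1.93 to 5.47 at D2, where their median change was 1.47, with 0 of 4 called and 3 of 4 at an unadjusted p under 0.05 (16% of all probes), and their part in the D2 lung values was not tested. Natural killer and innate lymphoid markers, a lineage that needs Nfil3, ran from 0.81 to 1.29 and from 0.73 to 1.78 in lung with 0 of 7 called and 1 at an unadjusted p under 0.05, beside 23.9% of all probes. Lungs also varied in squamous markers (-0.46 to 4.39 in vehicle mice, -0.61 to 2.18 at D3) and in skeletal muscle markers (-0.39 to 5.22 and -0.40 to 1.67), whose part was not tested. In forestomach, markers of the glandular stomach ran from 0.79 to 6.21 in vehicle mice and from 1.23 to 6.41 at D3. At D1 they ran from 5.25 to 6.65, with a median change of 3.50, 0 of 8 called and 7 of 8 at an unadjusted p under 0.05, and their part in the D1 values was not tested. There, fat cell markers ran from 1.43 to 4.91 in vehicle mice and from 1.10 to 3.35 at D3, and their part in the forestomach values was not tested.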

How the data were processed

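The deposited scanner files held spot intensities on a linear scale, which the authors read with Feature Extraction 10.7.3.1. The authors also deposited a table of LOWESS-normalised log2 ratios, which served as an alternative (r of 0.995 to 0.998 per array with the ratios used here). Median signals without background correction were loess-normalised within each array in limma 3.58.1 (R 4.3.3). Outlier spots were left out (0.495%) and spots of one probe averaged. The number of arrays limits the precision. Symbols and promoters came from RefSeq GRCm38.p6. The grid used mm9, so no probe coordinates are given. Probes entered a tissue's test when 4 or more of that tissue's arrays had them clearly over background in the Cy5 channel.

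One limma model per tissue held the 4 dose groups, and 1 model of all groups tested lung against liver. Adjusted p-values are two-sided limma values with Benjamini-Hochberg adjustment over all probes tested. The authors' MAANOVA was not installed. The brightest probe stood for a gene. Mice were separate animals. Tissues with one number came from one mouse. The within-mouse correlation of the lung and liver model, estimated over all probes together, was 0.052. Separate genes differed from it: the same-mouse r of lung and liver was 0.72 for Dbp, 0.68 for Tef, 0.76 for Hlf and 0.23 for Nfil3. The main lung and liver model held no mouse block, so its standard errors and p-values ignore this pairing. The pipeline was tested on simulated data.

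The members and the gene lists were chosen with earlier results of these data known. Named genes were the members, the called genes of the lists, and, per member, the 5 genes most alike and the 3 most opposite; unlisted values of Arntl, Por, Cyp7a1, Pdxk, Alas1, Cebpb, Per1 and Nr1d1 were chosen after they were seen. Alternatives covered normalisation, background, block, filter, samples and single mice; the same-mouse values, vehicle spread and D1 changes without mouse 3, and same-mouse values from the authors' table, were added after seeing the data. Cyp2a5 and Gif had no matching probe.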

Additional observations from a re-analysis of the deposited data

Results flagged for a closer look

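Among the 48 groups of member values examined for a stray sample, 2 held one, where chance flags about 1 group in 20. Dbp in the D3 liver of mouse 16 was 2.16, with the nearest of the other 3 livers at 2.46. Hlf in the D3 forestomach of mouse 18 was 2.26, with the nearest of the other 4 at 1.82. The change of Per3 at D3 differed between lung and liver by 0.96 (limma adjusted p = 0.045), a call that 16 of 28 other settings lost.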

How the results depend on the processing

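The 24 changes of the members at D2 and D3 kept their sign in 198 of 198 values from other settings and in 461 of 464 values with 1 mouse left out. The 3 exceptions were Hlf in forestomach at D2, near 0 throughout. Median centring, which moves the median of all probes by 0.38 at D2 and 0.15 at D3 in lung, gave Nfil3 in lung -0.28 at D2 and -0.64 at D3, and Tef in lung at D2 1.15. With the slide as a block too, Nfil3 gave -0.52 and -0.64. Median centring ended the lung calls of Dbp, Nfil3 and Tef, although Dbp (1.93 at D2, 1.95 at D3) and Tef (1.08 at D3) were larger under it. With the slide block too, Dbp and Tef were called, as were Hlf at D2 (0.86) and D3 (1.06) and Tef at D2 (0.93), and Nfil3 at D2 was not. A fit of the 2 groups alone ended the call of Dbp at D2. Dbp in lung at D2 lost its call without mouse 3, 5, 12, 13 or 15, and Tef in lung at D3 without mouse 3 or 19; Hlf in lung at D3 gained one without mouse 4 or 15 and with the slide block.

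Probes called under median centring numbered 0 and 0 in lung (D2, D3), 209 and 27 in liver, 1 and 0 in forestomach, and 53 and 10 for lung against liver, where the median of all probes moved by 0.65 and 0.26. With the slide block added they were 1183 and 1206 in lung, 433 at D2 in liver, 4 at D3 in forestomach, and 6167 and 1513 for lung against liver. Processed signals gave 376 and 1125 in lung, 208 and 196 in liver, 0 and 5 in forestomach and 773 for lung against liver at D2. The slide block alone gave 163 in liver at D3. Fits of the 2 groups alone gave 58 and 32 in liver and 0 and 1 in forestomach. The cause was not tested. Main counts were 169 and 572 in lung, 134 and 99 in liver, 4 and 8 in forestomach and 481 and 452 for lung against liver. With 1 mouse left out they ran from 128 to 198 and 394 to 690 in lung, 69 to 253 and 40 to 204 in liver, 1 to 6 and 5 to 9 in forestomach, and 329 to 603 and 309 to 575 for lung against liver. The liver counts were most moved at D2 by mice 4 (69), 2 (77), 3 (84) and 5 (253), and at D3 by mice 18 (40), 1 (48), 19 (49), 17 (55), 3 (57) and 5 (204). Those of forestomach fell to 1 at D2 without mouse 2, 11, 12, 13 or 14, to 2 without mouse 3 or 4, and to 5 at D3 without mouse 1, 17 or 18. The mouse as a replicate block gave 512 and 484 for lung against liver and changed no member's call.

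Clock output genes called in lung at D3 numbered 0 under median centring and 1 to 4 with 1 mouse left out, and in liver 1 with processed signals or the slide block and 0 to 1 with 1 mouse left out (1 without mouse 4 or 16). Opposite-phase genes called in lung numbered 1, which was lower, and 0 under median centring. They were 1 higher and 0 lower with the slide block added to it, 2 lower with normexp, the slide block or the authors' table, and 1 to 2 with 1 mouse left out (2 lower without mouse 2, 4, 6, 8 or 15, and 1 higher and 1 lower without mouse 5 or 18). PAR bZIP targets in lung numbered 1 with median centring and the slide block.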
